A study of Mus musculus with 8 samples.

Results

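The genes described here encode the constitutive proteasome, the protease complex that degrades proteins tagged with ubiquitin. They are the gene symbols that begin with Psma, Psmb, Psmc or Psmd and a number, without Psmb8, Psmb9 and Psmb10, which encode the catalytic subunits of the immunoproteasome. The rule found 37 of the 24328 symbols measured. Of these, 14 encode the subunits of the core particle (Psma1 to Psma7 and Psmb1 to Psmb7), and 17 encode subunits of the regulatory particle (Psmc1 to Psmc6 and 11 Psmd genes). Psmd5, Psmd9 and Psmd10 encode chaperones that help to build the regulatory particle and are absent from the finished complex. Psma8 and Psmb11 encode subunits known from testis and thymus, and Psmc3ip, a cofactor of meiotic recombination, shares only the start of its name. All but Psma8 reached 1 FPKM (fragments scaled to transcript length and library total) in at least 2 libraries, so that 36 members were tested among 12515 genes.

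The core particle is a barrel of stacked rings. Its outer rings of alpha subunits gate the entrance, and its inner rings of beta subunits hold the proteolytic sites of Psmb5, Psmb6 and Psmb7. The regulatory particle caps the barrel: its base unfolds substrates with a ring of ATPases, and its lid removes the ubiquitin chains. In muscle stem cells the complex is known to be needed for maintenance and regeneration, since deletion of the ATPase gene Psmc4 in these cells impairs both.

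RNA came from muscle stem cells (satellite cells) of C57BL/6 mice aged 2 months, sorted from skeletal muscle as Vcam-positive cells that lacked CD31, CD45 and Sca-1. The 4 groups held 2 libraries each. PFA-perfused and PBS-perfused cells came from Pax7-nGFP mice, whose muscle was perfused with the fixative paraformaldehyde or with buffer, while unperfused and injury-activated cells came from wild type mice without perfusion, the latter 2.5 days after injury. Only the PFA-perfused cells were fixed, their digestion used more collagenase, and their RNA was purified with a kit for fixed tissue. Fixation, digestion and RNA kit therefore cannot be told apart, nor can perfusion and genotype between the first and the last pair of groups. Whether both libraries of a group stem from different mice is not stated in the labels; p-values therefore reflect the spread between libraries, possibly a technical one.

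The satellite cell marker Pax7 stood at 448 ± 169 FPKM in PFA-perfused, 63.9 ± 22.2 in PBS-perfused, 20.1 ± 0.462 in unperfused and 4.50 ± 0.134 in injury-activated cells (SD, n = 2 here and throughout). Vcam1, the marker of the sort, was at or above 106 FPKM on average in every group, and no satellite cell marker of 8 was at 0. The markers did not move as 1. In unperfused against PFA-perfused cells 3 of the 8 were called higher and 4, Pax7 among them, lower (17.4 and 56.3% of all genes). Sdc4 stood at 329 ± 128 FPKM in PFA-perfused, 2908 ± 269.6 in PBS-perfused, 34234 ± 8605 in unperfused and 918 ± 13.2 in injury-activated cells. The 8 endothelial markers summed to 107 and 151 FPKM in the PBS-perfused libraries and to between 3.67 and 16.4 in the other 6, with Kdr at 0 in injury-activated replicate 1. The 8 haematopoietic markers summed to between 9.14 and 67.6 FPKM in all libraries, highest in the injury-activated pair; Itgam was at 0 in both PFA-perfused libraries, Ptprc in unperfused replicate 1 and Cd3e in unperfused replicate 2. Of the 7 fibro-adipogenic markers tested, 6 were called higher and 1 lower in PBS-perfused against PFA-perfused cells (17.8 and 46.2% of all genes). After injury against unperfused cells 4 were called higher and 1 lower (40.8 and 29.3% of all genes). No marker of the 8 listed was at 0. Their sums ran from 328 to 651 FPKM in PFA-perfused, 160.3 to 389 in PBS-perfused, 473 to 493 in unperfused and 59.8 to 67.3 in injury-activated libraries. Dpt held most of the sum in PFA-perfused and unperfused cells, at 476 ± 223 and 465 ± 12.1 FPKM. It stood at 165 ± 135 in PBS-perfused and 5.71 ± 0.136 in injury-activated cells. On average, Pdgfra, Ly6a, Dcn, Lum and Cd248 were instead higher in PBS-perfused and injury-activated than in PFA-perfused and unperfused cells. Col1a1 and Pi16 were highest in PBS-perfused and lowest in injury-activated cells. The 6 myofibre markers, none at 0, summed to 197 and 155 FPKM in the injury-activated libraries and to between 17.9 and 44.3 in the other 6. Acta1 and Tnnt3 held most of the sum after injury, at 113 ± 27.6 and 59.4 ± 1.11 FPKM. Myh1 was highest there on average at 0.918 ± 0.132 FPKM, Myh4 and Mb were lowest there, and Ckm was below its PFA-perfused and PBS-perfused means. Of the 3 markers tested, 2 were called higher after injury against unperfused cells (40.8% of all genes). The part of these other cell types in the results was not tested. Rn45s, the ribosomal RNA precursor, took 9.80 and 19.4% of all FPKM in the PFA-perfused libraries and at most 6.64% in any other. Levels were also compared with Rn45s and Malat1 removed and, separately, after scaling by the trimmed mean of ratios. In PBS-perfused against PFA-perfused cells these changes moved calls in opposite ways. There 46.2% of all genes were called lower without either, 49.8% with the removal and 25.6% with the scaling. In injury-activated against unperfused cells both moved calls the same way. There 40.8% were called higher without either, 37.5% with the removal and 36.2% with the scaling. Over all tested genes the median log2 fold change shifted with the trimmed mean scaling: in PBS-perfused against PFA-perfused cells from -0.50 to -0.01, in unperfused against PFA-perfused cells from -0.81 to 0.05, and in unperfused against PBS-perfused cells from -0.36 to 0.00. In injury-activated cells the shift was from 0.17 to -0.06 when set against unperfused cells and from -0.48 to 0.11 when set against PFA-perfused cells. Counts of members are given with and without this scaling. The injury-activated libraries agreed across genes at r = 0.997, against 0.972 to 0.981 in the other groups, and counts with both averaged to 1 library stand in the closing section.

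Proteasome RNA was abundant in every library. The median core or regulatory subunit stood at percentiles 94.6 and 94.3 of all tested genes in the PFA-perfused libraries. Its percentiles were 94.7 and 93.5 with PBS perfusion, 91.8 and 89.0 without perfusion and 97.2 and 97.0 after injury. The 31 subunits together made up 0.734 and 0.603% of all FPKM in PFA-perfused, 0.807 and 0.603% in PBS-perfused, 0.624 and 0.434% in unperfused and 1.61 and 1.59% in injury-activated libraries. Injury-activated cells were thus highest, and the other 3 groups overlapped. In bulk RNA, a change in how many cells hold a transcript and a change in the RNA per cell cannot be told apart. Both injury-activated libraries lay above the other 6 for 29 of the 36 members, against 25% of all tested genes, and below them for 1 member, Psmb4, against 29.5%. Both unperfused libraries lay below the other 6 for 20 of the 36 members, against 24.9% of all genes.

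**Figure D1:**
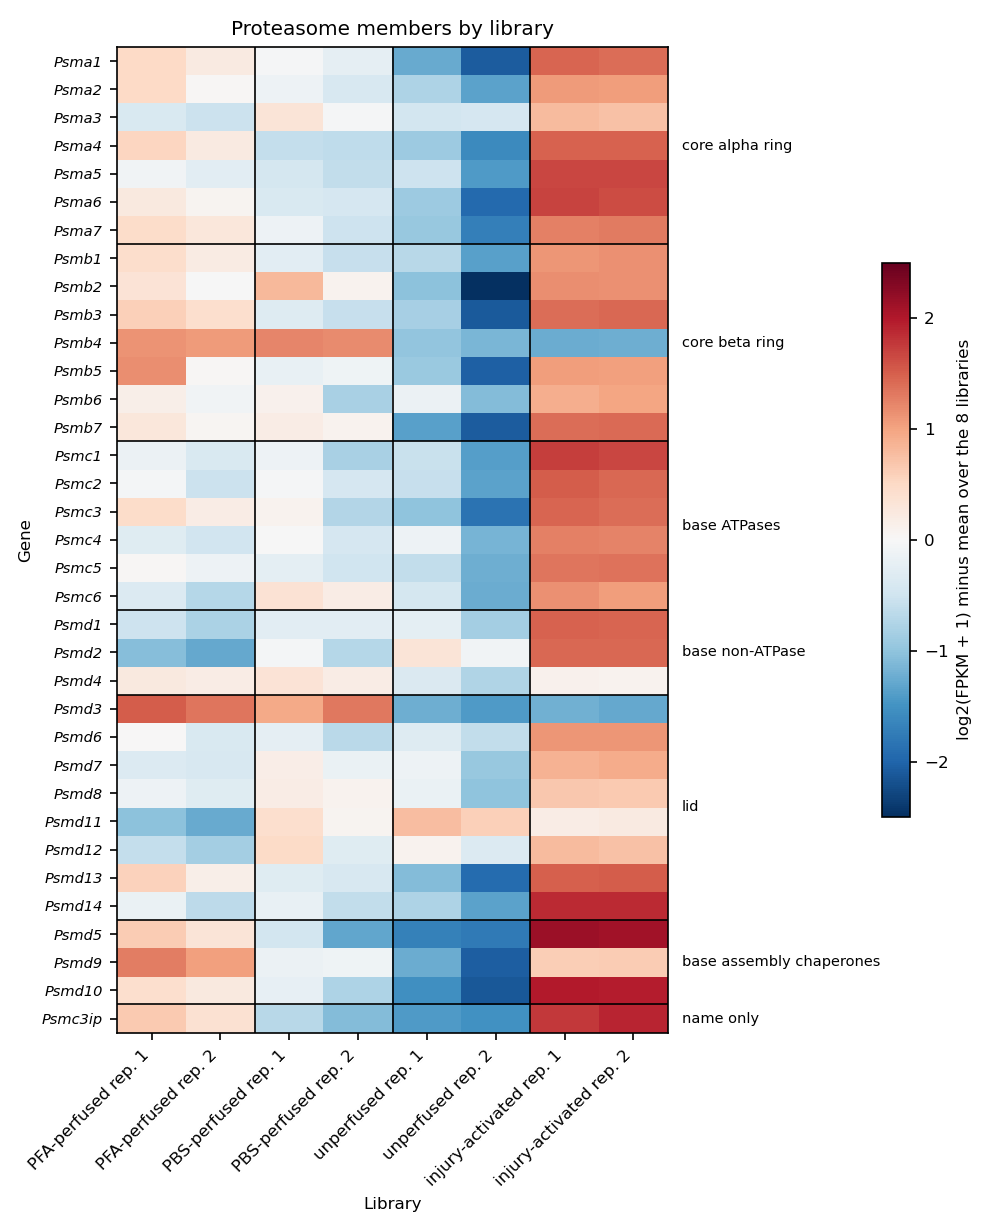
Level of each tested core and regulatory subunit, assembly chaperone and Psmc3ip (rows) in the 8 libraries (columns), as log2(FPKM + 1) minus the mean of the gene over the libraries. Most rows are highest in the injury-activated pair, with 29 members above the other 6 libraries, while Psmb4 and Psmd3 are high in the 4 libraries of perfused mice and low in the rest.

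The replicates of the uninjured groups differed in level as a set. In the unperfused pair, replicate 1 was higher than replicate 2 for 34 of 36 members, with a median log2 difference of 0.71 against 0.15 over all tested genes. The corresponding values were 35 members, 0.24 and 0.10 in the PFA-perfused pair and 31 members, 0.30 and 0.04 in the PBS-perfused pair. The injury-activated libraries differed least, with 22 members higher in replicate 1 and a median difference of 0.01. The members of a group therefore shift together between its libraries and are not independent of each other.

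Injury-activated cells were compared with unperfused cells, both from wild type mice. Transcripts of nearly the whole complex were higher after injury: 32 of 36 members rose and none fell at a Benjamini-Hochberg adjusted p under 0.05 (limma, over all genes tested), where 40.8% of all genes rose and 29.3% fell. None fell at an unadjusted p under 0.05 either, and 1 fell without PFA-perfused replicate 1, Psmb11 (-0.70). The median member rose by 2.27 on the log2 scale, against 0.17 for all genes, and after trimmed mean scaling 30 rose and 3 fell, with a median of 1.89 against -0.06 (36.2 and 36.8% of all genes). The libraries of both groups did not overlap for 32 members that were higher after injury (49.3% of all genes) and 3 that were lower (39.8%). By role, all 7 alpha subunits, 6 of 7 beta subunits, all 6 ATPases, all 3 other base subunits, 6 of 8 lid subunits and all 3 chaperones rose. The members left out of the rise were Psmb4, Psmd3, Psmd11 and the thymic Psmb11. The 5 proliferation markers, among them Mki67, summed to 651 and 690 FPKM in the injury-activated libraries and to between 5.54 and 19.2 in the other 6, and their part in the result was not tested.

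The alpha subunits rose by between 1.20 (Psma3) and 3.09 (Psma1). Psma1 stood at 241 and 229.6 FPKM in the injury-activated libraries and at 35.8 and 19.8 in the unperfused ones. Psma7 stood at 485 and 499 FPKM against 104 and 61.4, a rise of 2.60 ± 0.30 (SE) in log2 FPKM + 1 with limma adjusted p = 5.5e-05. The groups did not overlap for any alpha subunit. Psma3 changed least; it stood at 174 and 178 FPKM in unperfused cells, the highest of the ring there, and at 415 and 398 in injury-activated ones.

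Of the catalytic beta subunits, Psmb5 carries the chymotrypsin-like, Psmb6 the caspase-like and Psmb7 the trypsin-like site. Psmb5 stood at 132 and 59.8 FPKM in PFA-perfused, 51.3 and 54.1 in PBS-perfused, 30.3 and 13.4 in unperfused and 121 and 119 in injury-activated libraries. Psmb6 stood at 253 and 214, 245 and 128, 207 and 106, and 426 and 451 FPKM in these 4 groups. Psmb7 stood at 158 and 133, 148 and 138, 50.02 and 29.6, and 340.3 and 347 FPKM. All 3 were lowest on average in unperfused cells; for Psmb6 the unperfused libraries overlapped with the PBS-perfused ones, and for Psmb5 the injury-activated libraries lay between the PFA-perfused ones. After injury Psmb5 rose by 2.51 ± 0.42, Psmb6 by 1.56 ± 0.39 and Psmb7 by 3.13 ± 0.28 against unperfused cells, with limma adjusted p = 0.00055, 0.0057 and 1.2e-05. Psmb2 (2.92 ± 0.45), Psmb3 (2.89 ± 0.38) and Psmb1 (2.14 ± 0.26), structural beta subunits, rose as well.

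The immunoproteasome counterparts of these catalytic subunits did not share 1 course. Psmb10, the counterpart of Psmb7, stood at 39.8 and 37.4, 17.7 and 14.4, 7.35 and 5.42, and 76.2 and 77.1 FPKM, and rose by 3.41 ± 0.21 after injury (limma adjusted p = 2e-06). Psmb8, the counterpart of Psmb5, was at 17.3 and 15.4, 15.0 and 10.02, 1.10 and 1.42, and 2.32 and 2.08 FPKM. Psmb9, the counterpart of Psmb6, was at 9.68 and 7.17, 2.22 and 1.47, 0.607 and 0.563, and 1.36 and 0.900 FPKM. Psmb8 and Psmb9 were at or below 2.32 FPKM in all wild type libraries and passed no test between injury-activated and unperfused cells (0.50 and 0.42 on the log2 scale).

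**Figure D2:**
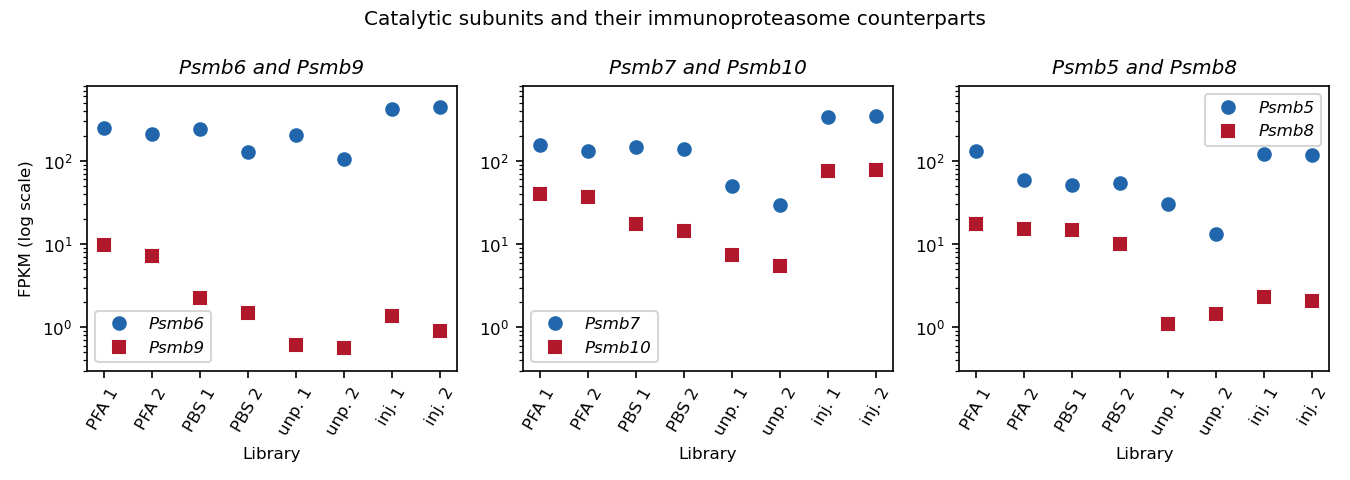
FPKM on a log axis of the 3 constitutive catalytic subunits (circles) and their immunoproteasome counterparts (squares) in each of the 8 libraries (x axis). Psmb10 is highest in the injury-activated pair, at 76.2 and 77.1 FPKM, as Psmb6 and Psmb7 are, while Psmb8 and Psmb9 stay at or below 2.32 FPKM in the unperfused and injury-activated libraries.

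The ATPases Psmc1 to Psmc6 form the ring of the base that unfolds substrates and threads them into the core. Each was highest in both injury-activated libraries, at 371 and 359 FPKM for Psmc1, 458 and 437 for Psmc2, 472 and 451 for Psmc3, 341 and 335 for Psmc4, 131 and 132 for Psmc5 and 284 and 266 for Psmc6. In unperfused cells the same genes stood at 75.3 and 42.2, 107 and 62.7, 85.0 and 46.8, 129 and 62.2, 32.7 and 21.1, and 93.9 and 53.5 FPKM. Replicate 1 was higher than replicate 2 for each of the 6 in unperfused cells, and no ATPase overlapped between these groups. Their log2 changes ran from 1.90 ± 0.34 (Psmc4) to 2.85 ± 0.36 (Psmc3).

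Among the other base subunits, Psmd1 and Psmd2 are large scaffolds that dock ubiquitin receptors and shuttle proteins, and Psmd4 is itself a ubiquitin receptor. Psmd1 stood at 84.1 and 68.9 FPKM in PFA-perfused, 99.3 and 99.7 in PBS-perfused, 102 and 66.2 in unperfused and 336 and 332 in injury-activated libraries. Its unperfused libraries overlapped with those of both other uninjured groups, and it rose by 2.01 ± 0.26 after injury. Psmd4 stood at 192 and 182, 203 and 184, 124 and 94.7, and 173 and 170.4 FPKM and rose by 0.66 ± 0.24 (limma adjusted p = 0.032). This rise was small and was not called after trimmed mean scaling (0.25), with Rn45s and Malat1 removed, without PFA-perfused replicate 1 or 2, unperfused replicate 2 or either injury-activated library, or with the injury-activated pair averaged.

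The lid subunits differed widely from each other after injury. Psmd14, the metalloprotease that cuts ubiquitin chains off substrates, stood at 48.1 and 34.4 FPKM in PFA-perfused, 47.7 and 35.2 in PBS-perfused, 31.5 and 20.8 in unperfused and 201 and 199.6 in injury-activated libraries. Its rise after injury was 2.92 ± 0.28, and that of Psmd13, a structural lid subunit, 3.01 ± 0.29 (limma adjusted p = 1.7e-05 and 1.8e-05). Psmd6, Psmd7, the partner of Psmd14, and Psmd8 rose by between 1.25 and 1.57. Psmd12 rose by 0.88 ± 0.30 (adjusted p = 0.026, limma), from 121 and 89.5 to 197 and 189.6 FPKM, and was not called after trimmed mean scaling, with Rn45s and Malat1 removed, without the filter on low values, without unperfused replicate 2 or either injury-activated library, or with the injury-activated pair averaged. Psmd3 and Psmd11 did not rise.

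The chaperones of base assembly were highest in injury-activated or PFA-perfused cells and lowest in unperfused ones. Psmd5 stood at 44.96 and 35.7 FPKM in PFA-perfused, 20.5 and 11.0 in PBS-perfused, 8.06 and 7.61 in unperfused and 129 and 125 in injury-activated libraries. Psmd10, also known as gankyrin, stood at 14.5 and 12.8, 9.08 and 5.77, 3.02 and 1.67, and 44.6 and 43.9 FPKM. Psmd9 stood at 95.8 and 79.5, 35.1 and 36.2, 15.9 and 8.58, and 59.6 and 60.4 FPKM. The libraries of the 4 groups did not overlap for any of the 3 genes and followed the order PFA-perfused, PBS-perfused, unperfused from high to low, with injury-activated cells highest for Psmd5 and Psmd10 and between the first pair of groups for Psmd9. Against unperfused cells, Psmd5 rose by 3.86 ± 0.28, Psmd10 by 3.79 ± 0.27 and Psmd9 by 2.26 ± 0.28. Against PFA-perfused cells Psmd9 was not called (-0.53), and injury-activated cells were not tested against PBS-perfused ones. Psmc3ip, outside the complex, moved the same way, at 9.00 and 7.36, 2.97 and 2.01, 1.39 and 1.24, and 20.8 and 22.9 FPKM (3.30 ± 0.21 after injury).

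Injury-activated cells were also set against PFA-perfused cells, where 27 members rose and 2 fell (26.1 and 47.3% of all genes), with a median of 1.23 against -0.48. After trimmed mean scaling 32 rose and 2 fell (39.7 and 33.1%). Without overlap, 30 were higher and 4 lower (34.5 and 56.7% of all genes). All 7 alpha subunits and all 6 ATPases rose, by up to 1.85 (Psma5) and 1.96 (Psmc1), while 2 of 7 beta subunits rose and Psmb4 fell. Psmd2 rose most, by 2.61 ± 0.30, followed by Psmd14 (2.27 ± 0.28) and Psmd1 (2.12 ± 0.26). The PFA-perfused libraries served in 3 comparisons and the unperfused ones in 3, so the comparisons are not independent of each other.

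**Figure D3:**
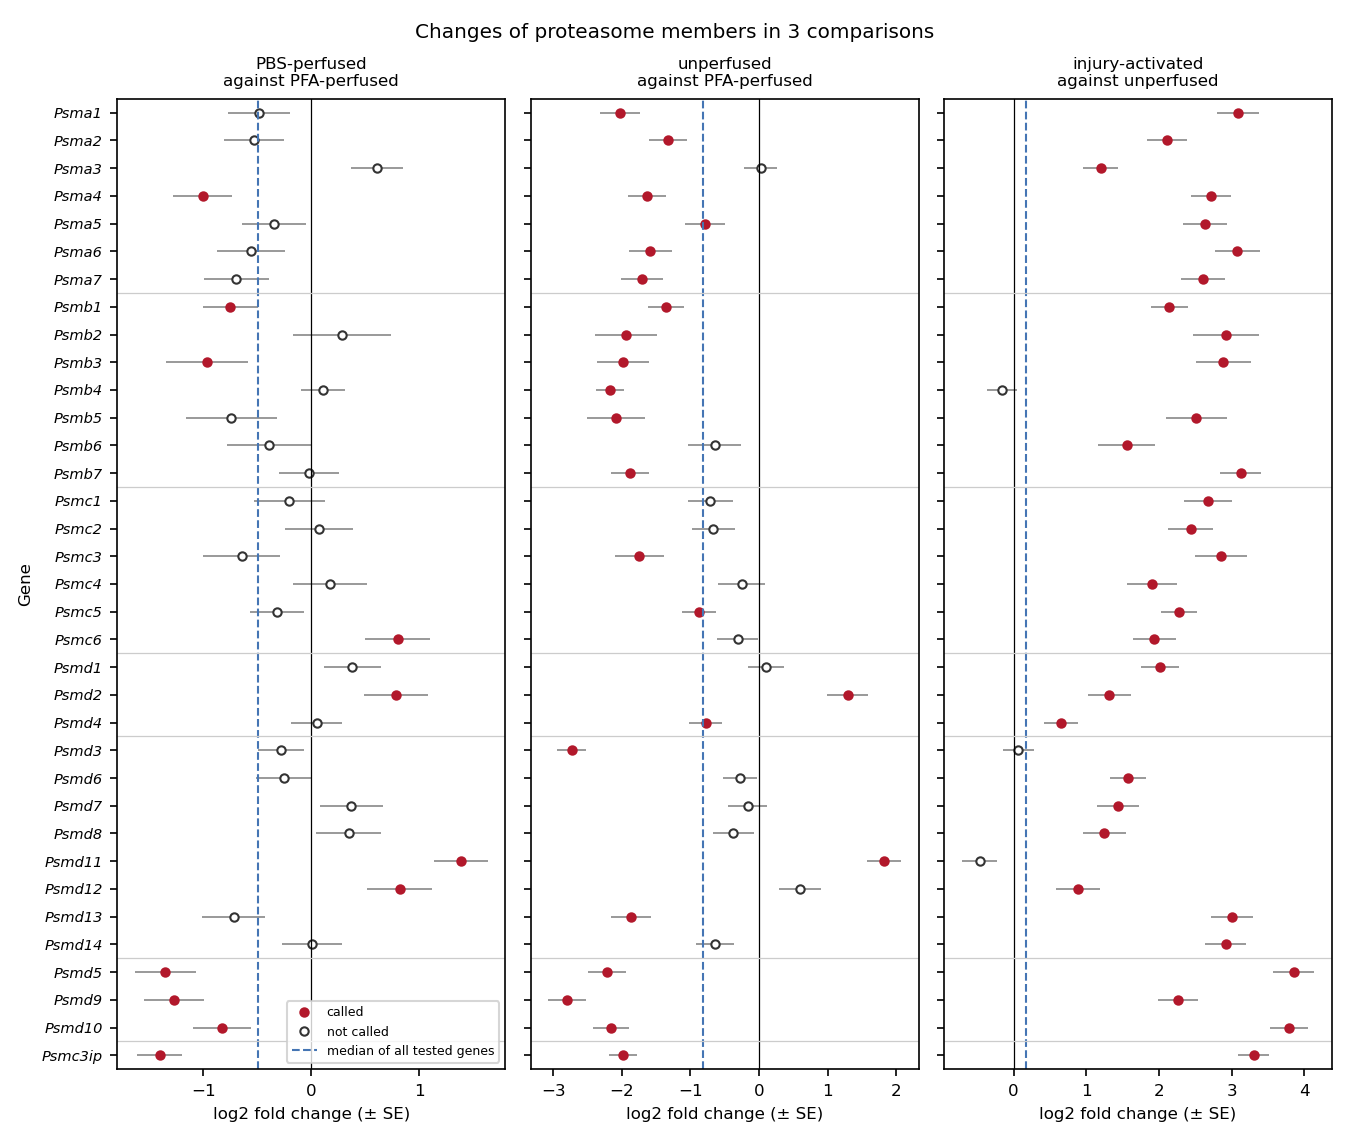
Log2 fold change of FPKM + 1 (points, ± SE) for each tested subunit, chaperone and Psmc3ip in 3 comparisons, filled where called by limma at an adjusted p under 0.05. The dashed line is the median of all tested genes. In injury-activated against unperfused cells nearly all points lie to the right of that line, except Psmb4, Psmd3 and Psmd11; Psmd11 and Psmd2 lie farthest to the right in unperfused against PFA-perfused cells.

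The 3 preparations of uninjured muscle were compared with each other. Genotype, digestion and RNA kit differ among them as well, as given above, so perfusion and fixation cannot be told apart from these. In PBS-perfused against PFA-perfused cells, 4 members rose and 7 fell, where 17.8% of all genes rose and 46.2% fell. Without overlap between the libraries, 9 members were higher and 17 lower (23.8 and 56.2% of all genes). The risers were all regulatory subunits: Psmd11, Psmd12, Psmc6 and Psmd2. The fallers were the core subunits Psma4, Psmb1 and Psmb3, the chaperones Psmd5, Psmd9 and Psmd10, and Psmc3ip. Of the core subunits the remaining 11 were not called, and of the 17 regulatory subunits 13 were not, with medians of -0.51 and 0.07 against -0.50 for all genes. After trimmed mean scaling 14 rose and 3 fell (28.9 and 25.6% of all genes), namely 11 regulatory and 3 core subunits up and Psmd5, Psmd9 and Psmc3ip down. The split of calls thus turned with the scaling, although the 4 risers were still called. Fewer members rose without PFA-perfused replicate 1 or 2, PBS-perfused replicate 1 or either injury-activated library. With a library left out, the fewest fell without PFA-perfused replicate 1 or PBS-perfused replicate 2. In those fits the share of all genes called the same way was lower as well.

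Psmd11, the lid subunit that clamps the regulatory particle to the core, stood at 100.2 and 84.3 FPKM in PFA-perfused, 274 and 214 in PBS-perfused, 348 and 308 in unperfused and 233 and 240.0 in injury-activated libraries. Both PFA-perfused libraries were below the other 6. It rose by 1.39 ± 0.25 in PBS-perfused and by 1.82 ± 0.25 in unperfused against PFA-perfused cells (limma adjusted p = 0.0012 and 0.00013), and was called in all 14 alternatives for both. Unperfused and PBS-perfused cells differed by 0.43 (not called; 1.00 and called after trimmed mean scaling). After injury its change against unperfused cells was -0.47 ± 0.25 (not called), and -0.88 and called after trimmed mean scaling.

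Psmd2 stood at 131 and 112 FPKM in PFA-perfused, 264 and 167 in PBS-perfused, 344 and 258 in unperfused and 743 and 745 in injury-activated libraries, where it was the highest of all 31 subunits. It rose by 0.79 ± 0.30 in PBS-perfused and 1.29 ± 0.30 in unperfused against PFA-perfused cells, and by 1.32 ± 0.30 after injury. Psmd12, a scaffold of the lid, stood at 75.0 and 62.6, 159.9 and 92.6, 121 and 89.5, and 197 and 189.6 FPKM, and Psmc6 at 100.4 and 77.7, 165 and 145, 93.9 and 53.5, and 284 and 266 FPKM. Psmd12 rose by 0.82 ± 0.30 and Psmc6 by 0.80 ± 0.30 in PBS-perfused against PFA-perfused cells, with limma adjusted p = 0.039 and 0.041. The PBS-perfused calls of Psmd2, Psmd12 and Psmc6 were each lost without PFA-perfused replicate 1 or 2, PBS-perfused replicate 1, or an injury-activated library, which leaves Psmd11 as the riser called in each of those fits. Unperfused cells overlapped with PFA-perfused cells for Psmc6 and did not for Psmd12, which was not called there (0.60).

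The 4 risers are shown by the 250 bases before their annotated start, 5′ to 3′ on the strand of the gene (RefSeq, GRCm38.p6, where the authors' files used mm9). Capitals mark CCGGAAG or its reverse complement CTTCCGG, the motif of ETS family transcription factors. Psmb4 is shown for contrast and holds neither. It was not called in that comparison without scaling and was called higher after trimmed mean scaling. Members other than the 4 risers hold the motif as well, as listed below, and a link between motif and rise was not tested. The windows are chr11:80428365-80428614 (plus strand) for Psmd11, chr16:20651402-20651651 (plus) for Psmd2, chr11:107479278-107479527 (plus) for Psmd12, chr14:45329574-45329823 (plus) for Psmc6 and chr3:94886959-94887208 (minus) for Psmb4.
Psmd11: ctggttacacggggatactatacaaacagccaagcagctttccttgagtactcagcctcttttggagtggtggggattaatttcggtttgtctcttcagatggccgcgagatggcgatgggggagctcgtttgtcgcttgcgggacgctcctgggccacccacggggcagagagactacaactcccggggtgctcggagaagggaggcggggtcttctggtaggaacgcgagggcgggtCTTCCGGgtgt
Psmd2: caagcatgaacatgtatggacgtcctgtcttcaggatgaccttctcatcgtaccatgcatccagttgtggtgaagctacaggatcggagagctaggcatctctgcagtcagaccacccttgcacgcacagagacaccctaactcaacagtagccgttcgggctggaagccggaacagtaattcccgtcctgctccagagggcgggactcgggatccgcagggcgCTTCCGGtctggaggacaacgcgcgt
Psmd12: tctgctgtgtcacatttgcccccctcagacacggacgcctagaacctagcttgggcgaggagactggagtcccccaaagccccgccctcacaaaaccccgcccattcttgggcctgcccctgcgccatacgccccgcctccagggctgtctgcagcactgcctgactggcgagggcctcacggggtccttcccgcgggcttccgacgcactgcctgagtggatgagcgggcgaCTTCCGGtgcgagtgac
Psmc6: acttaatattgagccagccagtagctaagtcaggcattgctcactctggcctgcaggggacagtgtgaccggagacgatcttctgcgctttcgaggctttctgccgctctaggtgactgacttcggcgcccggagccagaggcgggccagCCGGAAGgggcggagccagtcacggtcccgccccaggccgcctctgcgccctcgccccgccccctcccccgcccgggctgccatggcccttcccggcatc
Psmb4: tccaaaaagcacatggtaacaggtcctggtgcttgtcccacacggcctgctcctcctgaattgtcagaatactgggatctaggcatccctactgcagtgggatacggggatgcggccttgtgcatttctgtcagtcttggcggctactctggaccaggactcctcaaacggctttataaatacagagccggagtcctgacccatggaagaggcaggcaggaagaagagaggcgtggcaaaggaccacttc

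The first base of the match lies at -11 from the start in Psmd11, -26 in Psmd2, -17 in Psmd12 and -100 in Psmc6. On either strand, CCGGAAG was found in 10 of the 30 members with a promoter in the table (33.3%) and in 6.91% of all 32851 promoters: besides these 4 in Psma6, Psmc1, Psmc2, Psmc3ip, Psmd4 and Psmd6. TGACNNNGC, the core of the antioxidant response element bound by Nfe2l1 and Nfe2l2, was found in 5 members (16.7%; 10.2% of all), namely Psmb5, Psmb6, Psmc6, Psmd12 and Psmd9. The CCAAT box was found in 13 (43.3%; 33.8% of all), and GAANNTTC, the paired unit of the heat shock element, in Psmb5 (3.33%; 6.69% of all). Members were counted by gene, with a match in any of their promoters, whereas the shares of all count each promoter, also of genes not tested here. These percentages are therefore not measured alike. The motifs were chosen after the values had been seen, matches of different motifs can share bases, and a match describes letters in a window, not binding.

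Unperfused cells were compared with PFA-perfused cells, and 21 members fell and 2 rose, where 56.3% of all genes fell and 17.4% rose. The median member changed by -1.10 against -0.81 for all genes, and without overlap 25 members were lower and 3 higher (63.2 and 22.4% of all genes). The members that fell were 12 of 14 core subunits, all but Psma3 and Psmb6, together with Psmc3, Psmc5, Psmd3, Psmd4 and Psmd13 of the regulatory particle, the 3 chaperones and Psmc3ip. Psmd2 and Psmd11 rose, as given above, and the other 10 regulatory subunits were not called. The medians were -1.67 for the core, -0.38 for the regulatory particle and -2.22 for the chaperones. After trimmed mean scaling 11 members fell and 11 rose (31.9 and 36% of all genes): Psma1, Psmb3, Psmb4, Psmb5, Psmb7, Psmd3, Psmd13, the 3 chaperones and Psmc3ip fell, while 9 regulatory subunits, Psma3 and Psmb11 rose. The median core change was then -0.47 and that of the regulatory particle 0.82.

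Psmb3, a beta subunit without a proteolytic site, stood at 255 and 227 FPKM in PFA-perfused, 134 and 112 in PBS-perfused, 93.7 and 38.2 in unperfused and 443 and 458 in injury-activated libraries. It fell by 1.99 ± 0.38 in unperfused against PFA-perfused cells (limma adjusted p = 0.0011). Psma7, the highest of all subunits in PFA-perfused cells, stood there at 279.6 and 248 FPKM and in PBS-perfused cells at 186 and 141. Psma4 stood at 207 and 167, 93.4 and 90.8, 75.7 and 46.8, and 398 and 394 FPKM and fell by 1.01 ± 0.28 in PBS-perfused and 1.63 ± 0.28 in unperfused against PFA-perfused cells. All 3 genes followed the same order of groups, with injury-activated cells above PFA-perfused, PBS-perfused and unperfused cells in turn and no overlap between neighbours. Psma3 differed from that order: it stood at 183 and 164, 298 and 236, 174 and 178, and 415 and 398 FPKM, the highest of all subunits in PBS-perfused cells, and was not called between any of the uninjured groups, though it was called higher in PBS-perfused and unperfused than in PFA-perfused cells after trimmed mean scaling.

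In unperfused against PBS-perfused cells, 18 members fell and none rose, where 36.5% of all genes fell and 13.1% rose (limma, adjusted p). At an unadjusted p under 0.05 the counts were 23 and 0, and after trimmed mean scaling 8 fell and 2 rose (22.9 and 24.5% of all genes). Without overlap, 25 were lower and 2 higher (52.1 and 20% of all genes). The 18 were 9 core subunits, Psmc3, Psmc6, Psmd3, Psmd4, Psmd13, the 3 chaperones and Psmc3ip. Psmb2, a beta subunit, fell by 2.22 ± 0.45, from 292 and 177 FPKM in PBS-perfused to 81.3 and 28.1 in unperfused libraries, with 211 and 166 in PFA-perfused and 373 and 367 in injury-activated ones. Psmb7 fell by 1.86 ± 0.28. After the scaling the risers were Psmd2 and Psmd11, and Psma1, Psmb2, Psmb4, Psmb7, Psmd3, Psmd9, Psmd10 and Psmd13 fell. Fewer members fell without PBS-perfused replicate 1 or without unperfused replicate 2, fits that leave a single library in a group. In both, the share of members that fell was not above that of all genes.

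Psmb4 and Psmd3 stood apart from the other subunits. Psmb4, a beta subunit without a proteolytic site, stood at 187 and 181 FPKM in PFA-perfused, 201 and 197 in PBS-perfused, 42.6 and 38.1 in unperfused and 35.7 and 36.3 in injury-activated libraries. Psmd3, a lid scaffold, stood at 64.4 and 57.1, 43.5 and 56.8, 8.93 and 7.66, and 9.00 and 8.44 FPKM. Both were high in all 4 Pax7-nGFP libraries and low in all 4 wild type libraries: the lowest of the first was 4.25 times the highest of the second for Psmb4 and 4.83 times for Psmd3. Such a gap of over 4 times was found in 428 of the tested genes (3.42%). In all, 3 of 36 members were higher in every Pax7-nGFP library than in every wild type library (22.9% of all genes), the third being Psmd4 with a factor of 1.06, and none was lower in every one (4.85%).

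In unperfused against PFA-perfused cells Psmb4 fell by 2.17 ± 0.20 and Psmd3 by 2.73 ± 0.21, with limma adjusted p = 1.6e-05 and 5.6e-06. In injury-activated against PFA-perfused cells they were the only members that fell, by 2.32 ± 0.20 and 2.66 ± 0.21. Neither was called between PBS-perfused and PFA-perfused cells, at 0.11 ± 0.20 and -0.28 ± 0.21, nor between injury-activated and unperfused cells, at -0.16 ± 0.20 and 0.07 ± 0.21; after trimmed mean scaling Psmb4 was called there, at 0.75 and -0.56. Genotype, perfusion and any other difference between these pairs of groups cannot be told apart. In GENCODE M21 (GRCm38), Psmd3 overlaps Gm12356 on the opposite strand, and the kit's strand handling was not given in the sources used here, so their reads could not be told apart. Psmb4 overlaps no other annotated gene in that annotation.

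**Figure D4:**
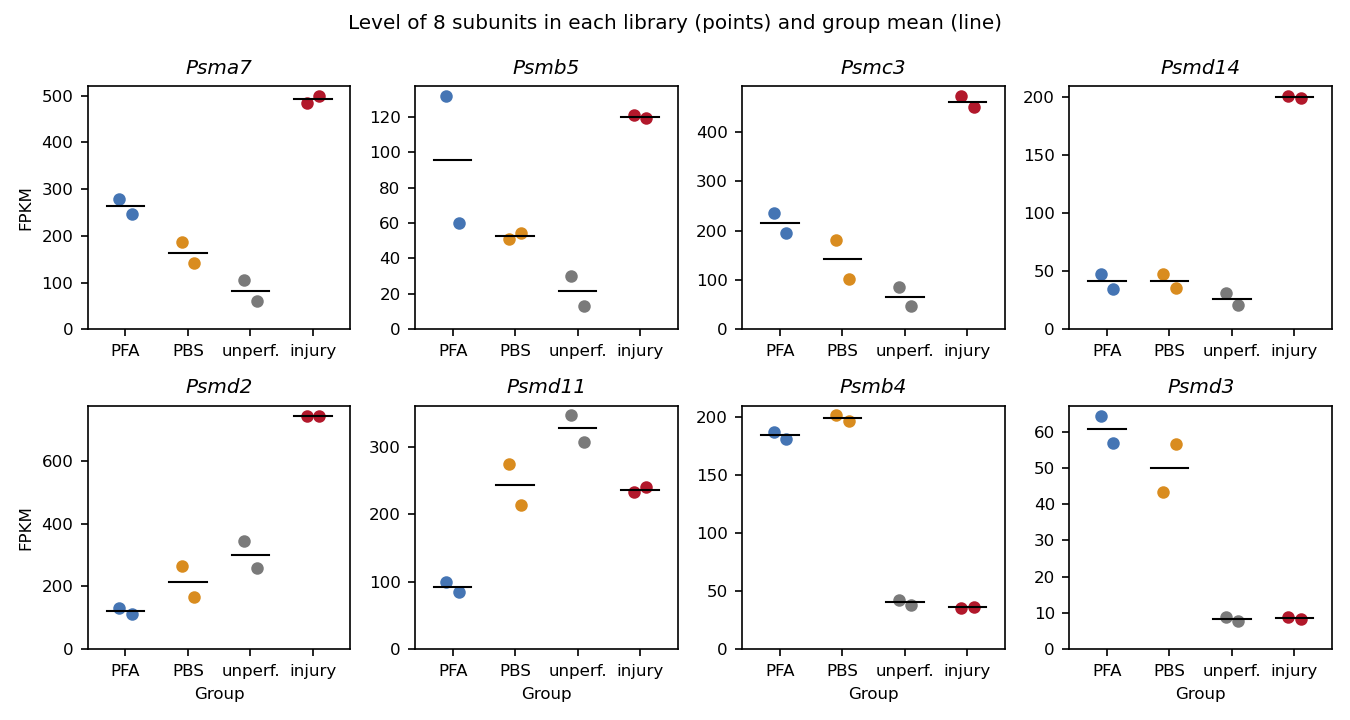
FPKM of 8 subunits in each library (points) with the group mean (line), groups on the x axis. Psma7, Psmb5, Psmc3 and Psmd14 are lowest in unperfused cells, Psmd2 and Psmd11 rise from PFA-perfused to unperfused, and Psmb4 and Psmd3 are at least 4.25 and 4.83 times higher in every PFA-perfused and PBS-perfused library than in any unperfused or injury-activated one.

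The balance between core and regulatory transcripts, as a ratio of means, was close within each group. It differed between groups, except that PBS-perfused and injury-activated libraries overlapped. FPKM is scaled to length, so subunit levels were averaged within a library. How the values were combined or rounded is not given, which limits such averages over genes. The mean core subunit stood at 171 and 142 FPKM in PFA-perfused, 143 and 113 in PBS-perfused, 78.3 and 48.4 in unperfused and 298 and 299 in injury-activated libraries. The mean regulatory subunit stood at 106 and 89.3, 133 and 103, 113 and 77.9, and 273 and 269 FPKM. Their ratio was 1.61 and 1.59 in PFA-perfused, 1.07 and 1.09 in PBS-perfused, 0.695 and 0.621 in unperfused and 1.09 and 1.11 in injury-activated libraries. PFA-perfused libraries thus had the highest ratio and unperfused ones the lowest, with PBS-perfused and injury-activated libraries close to each other between them. The ratios are given as a description, with no test.

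Part of the spread of this ratio lay in 2 genes. Without Psmd2 and Psmd11 it was 1.63 and 1.61, 1.24 and 1.23, 0.960 and 0.957, and 1.22 and 1.25 in the 4 groups as listed. The ratio of the core to the 6 ATPases was 1.36 and 1.39, 1.09 and 1.19, 0.898 and 1.01, and 0.870 and 0.905, so that on this measure the injury-activated and unperfused libraries overlapped. The ratio of the median core to the median regulatory subunit was 1.76 and 1.91, 0.865 and 1.02, 0.723 and 0.669, and 1.39 and 1.36. PFA-perfused libraries were highest and PBS-perfused libraries higher than unperfused ones on all 4 measures.

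**Figure D5:**
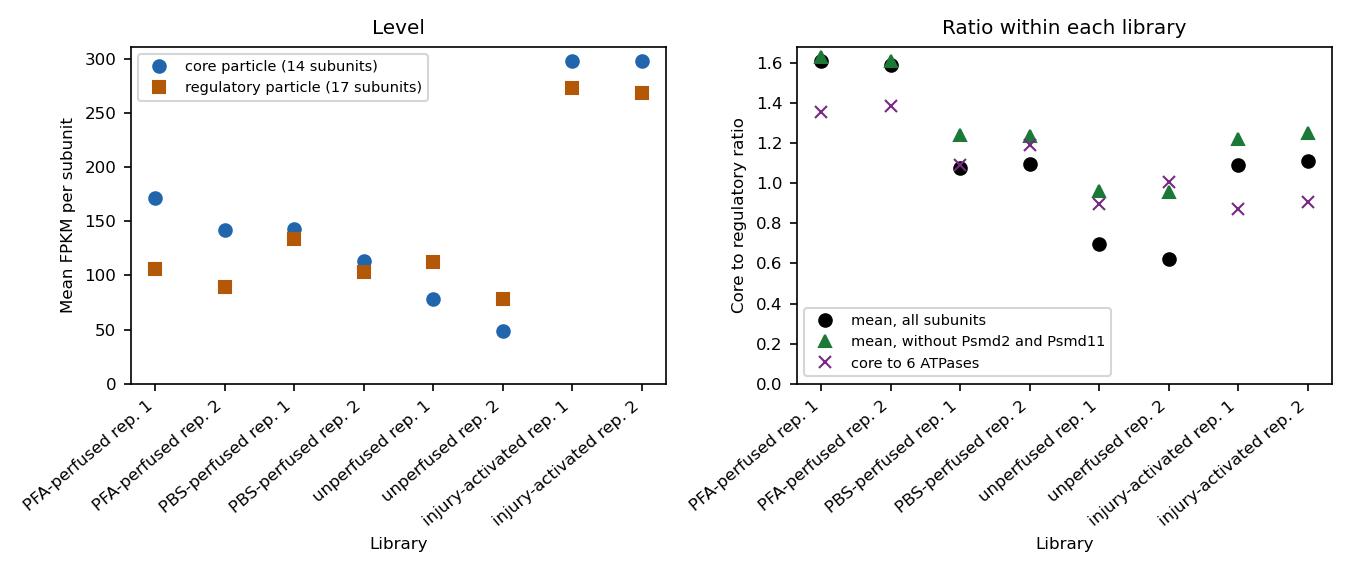
Left, mean FPKM per subunit of the core (14 subunits) and regulatory particle (17 subunits) in each library; right, the ratio of the core mean to the regulatory mean in each library, with all subunits, without Psmd2 and Psmd11, and against the 6 ATPases. With all subunits the ratio is 1.61 and 1.59 in the PFA-perfused and 0.695 and 0.621 in the unperfused libraries.

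Core subunits have shorter coding sequences than regulatory ones, and changes of all genes varied with coding length, as computed after the values had been seen. The 14 core genes span 603 to 831 nucleotides of coding length and the 17 regulatory genes 930 to 2859. In unperfused against PFA-perfused cells, the median change of the 1593 tested genes with at least 600 and under 900 nucleotides was -1.14, that of the 4293 with at least 900 and under 1800 was -0.85 and that of the 4019 longer ones -0.48. The core median was -1.67, and that of the 15 regulatory genes under 1800 nucleotides was -0.65. For PBS-perfused against PFA-perfused cells the medians of the first pair of classes were -0.60 and -0.47, with -0.51 for the core and 0.05 for those 15 regulatory genes. For injury-activated against unperfused cells they were 0.58 and 0.31, with 2.62 for the core and 1.90 for the regulatory genes. For unperfused against PBS-perfused cells they were -0.59 and -0.42, with -1.01 for the core and -0.66 for those 15 regulatory genes. In all these comparisons the shorter class lay on the same side of the longer one as the core of the regulatory genes. In injury-activated against PFA-perfused cells it did not: the medians were -0.33 and -0.36 for the 2 classes, with 0.95 for the core and 1.35 for the regulatory genes. The part of length in the ratio was not tested.

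Genes that serve the complex from outside were described by lists chosen with earlier results of these data known. Of the 5 core assembly chaperones, Psmg1 to Psmg4 and Pomp, 4 fell and none rose in PBS-perfused (46.2 and 17.8% of all genes), and 5 fell in unperfused against PFA-perfused cells (56.3%). With trimmed mean scaling 3 and 4 fell (25.6 and 31.9%). All 5 rose after injury against unperfused cells, with and without the scaling (36.2 and 40.8% of all genes), Psmg3 by 3.99 ± 0.34, from 5.38 and 1.82 to 67.0 and 65.9 FPKM. Psmg3 stood at 29.4 and 34.8 FPKM in PFA-perfused and 6.80 and 6.96 in PBS-perfused libraries, and thus followed the order of the base chaperones Psmd5 and Psmd10. The group means of Psmg2 and Pomp followed it as well, while those of Psmg1 and Psmg4 were lower after injury than in PFA-perfused cells. Psmg1 stood at 19.3 ± 2.18 against 48.5 ± 6.82 FPKM and Psmg4 at 3.69 ± 0.147 against 22.0 ± 2.13. In injury-activated against PFA-perfused cells 2 of the 5 rose and 2 fell (26.1 and 47.3% of all genes). Of 2 further regulatory subunits outside the naming rule, Shfm1 fell by 1.82 ± 0.28 in unperfused against PFA-perfused cells and rose by 1.46 ± 0.28 after injury, and Adrm1, a ubiquitin receptor, was called in none of the 5 comparisons without the scaling and as higher in 3 of them with it.

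Among 5 activators and inhibitors that bind the core in place of the regulatory particle, 3 rose and 1 fell after injury against unperfused cells, where 40.8% of all genes rose and 29.3% fell. Psmf1, an inhibitor, rose by 2.61 ± 0.28 and the activator subunits Psme1 and Psme2 by 1.93 ± 0.25 and 1.42 ± 0.23, while Psme4 fell by 0.88 ± 0.23. Psme4, a large single-chain activator, stood at 53.4 and 70.6 FPKM in PFA-perfused, 67.1 and 60.2 in PBS-perfused, 137 and 120.1 in unperfused and 72.2 and 66.4 in injury-activated libraries. Unperfused cells were thus its highest group, without overlap. Psme3, the nuclear activator, was highest in PBS-perfused cells, at 49.8 and 47.6 FPKM against 23.9 and 12.6 in PFA-perfused ones (1.44 ± 0.29).

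Of 10 shuttles and associated factors, 5 rose and 1 fell after injury against unperfused cells, near the shares of all genes (40.8 and 29.3%), and 4 rose and 4 fell after trimmed mean scaling (36.2 and 36.8%). The deubiquitinases Usp14 and Uchl5, which dock on the base, rose by 2.22 ± 0.24 and 2.51 ± 0.23. Usp14 stood at 20.7 and 15.2, 24.0 and 23.7, 27.9 and 23.2, and 105 and 142 FPKM. Ubqln1, a shuttle of ubiquitinated proteins, rose by 1.42 ± 0.21 in PBS-perfused against PFA-perfused cells, from 38.0 ± 6.53 to 103 ± 3.63 FPKM.

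Of 7 regulators of proteasome abundance or activity, 4 rose and 1 fell in PBS-perfused against PFA-perfused cells (17.8 and 46.2% of all genes), and 5 rose and none fell after trimmed mean scaling (28.9 and 25.6%). Zfand5, an activator of the complex, rose by 3.46 ± 0.20, from 21.4 and 20.4 to 224 and 258 FPKM, and stood at 47.1 and 47.2 in unperfused and 5.56 and 4.36 in injury-activated libraries. Zfand2a, induced by arsenite and heat, rose by 1.63 ± 0.30, Ddi2, the protease that processes Nfe2l1, by 1.31 ± 0.22 and Nfe2l2, a factor of the oxidative stress response, by 1.03 ± 0.23. Nfe2l1, the factor that raises subunit transcription when the proteasome is impaired, stood at 29.1 and 28.9 FPKM in PFA-perfused, 32.3 and 44.6 in PBS-perfused, 48.1 and 40.5 in unperfused and 32.6 and 32.2 in injury-activated libraries. Without scaling it was called in 1 of the 5 comparisons, unperfused against PFA-perfused cells (0.59 ± 0.22, limma adjusted p = 0.037), and with trimmed mean scaling in all 5. The 8 stress response markers, among them Fos, Atf3 and Hspa1a, summed to 18035 and 20843 FPKM in the PBS-perfused libraries and to between 126 and 1559 in the other 6; their part in these results was not tested.

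Ubb, which encodes a chain of ubiquitin units, rose by 2.59 ± 0.40 in PBS-perfused against PFA-perfused cells, from 944 and 775 to 6729 and 3942 FPKM. Rps27a, which encodes ubiquitin fused to a ribosomal protein, fell by 0.99 ± 0.39 in that comparison and was not called as a fall after trimmed mean scaling. After injury against unperfused cells, Rps27a rose by 2.62 ± 0.39 and Ubb fell by 1.12 ± 0.40. Uba1, the enzyme that activates ubiquitin, rose by 1.68 ± 0.22 in the same comparison, from 69.7 and 54.9 to 198 and 202 FPKM, and Vcp, the ATPase that extracts substrates, was called in none of the 5 comparisons without the scaling and in 4 of them with it.

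Psma8 and Psmb11 were low. Psma8 was listed at 0 in 7 libraries and at 0.158 FPKM in PFA-perfused replicate 2. Psmb11 ranged from 0.0600 to 1.38 FPKM, both values in the PFA-perfused pair. Several members share their place in the genome: Psma4 with AY074887, Psmb7 with Nek6, Psmc3 with Slc39a13, Psmc3ip with Mlx, Psmd1 with Htr2b and Psmd13 with Sirt3, all on opposite strands, and Psmb5 with Mir686 and Psmd1 with Gm21972 on the same strand. Reads of such partners could not be told apart. All 37 members carry more than 6 decimals in the authors' table, unlike the 6 that the software writes, and for 36 of them a single whole number turned all 8 values into whole multiples of the sixth decimal within 0.03. How these values were combined or rounded is not given in the sources used here, which limits comparisons of level between genes more than those between libraries.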

How the data were processed

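RNA was sequenced from sorted muscle stem cells in 8 libraries, 2 for each of 4 groups taken from the labels. The authors made the deposited FPKM values with StringTie 1.3.3, STAR 2.5.3a and R 3.4.1 on mm9, per the submitters' processing notes, which give no roles. The unit is not in the header and was inferred from these tools and from library totals, which run from 461454 to 582336 and so cannot be TPM. Read counts were not analysed here and library depth is unknown.

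Log2(FPKM + 1) of genes with at least 1 FPKM in at least 2 libraries entered 1 model over all 8 libraries in limma 3.58.1 (R 4.3.3), with a variance trend and no covariate. Calls in the 5 comparisons rest on two-sided p-values, adjusted over all genes tested by Benjamini-Hochberg, under 0.05. Fold changes are log2 differences, given ± SE, and understate changes of low genes. The test was checked on simulated data. The alternatives were trimmed mean scaling (trims 0.3 and 0.05), removal of Rn45s and Malat1 with rescaling, a pseudocount of 0.1, no filter, the replicate number as a block and each library left out. Averaging the injury-activated libraries was chosen later, with the values known.

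Per-library values were given for Psmb5, Psmb6, Psmb7, Psmc1 to Psmc6, Psmd1, Psmd2, Psmd4, Psmd11 and Psmd14, and for up to 4 called rises and 4 called falls a comparison with at least 10 FPKM and no overlap; up to 4 called genes of each pathway list were named. Psma1, Psma3, Psma7, Adrm1, Vcp and the values of some genes in further groups were added after their values were seen. Members and lists were chosen with earlier results of these data known. Coding lengths are the longest coding sequence per symbol in GENCODE M21 (GRCm38), found for 90.7% of tested genes. Promoters came from RefSeq (GRCm38.p6) and matched 30 of 37 members by symbol. Some genes of the pathway lists are not reported here.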

Additional observations from a re-analysis of the deposited data

How the results depend on the processing

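After trimmed mean scaling, members called higher and lower numbered 14 and 3 (4 and 7 without it) for PBS-perfused against PFA-perfused, 11 and 11 (2 and 21) for unperfused against PFA-perfused, 2 and 8 (0 and 18) for unperfused against PBS-perfused, 30 and 3 (32 and 0) for injury-activated against unperfused and 32 and 2 (27 and 2) for injury-activated against PFA-perfused cells. Psmc5 and Psmd4 turned from falls of 0.87 and 0.78 to 0.30 and 0.42 in unperfused against PFA-perfused cells, where neither was called. With Rn45s and Malat1 removed, 1 member fell after injury against unperfused cells (32.6% of all genes). Without the filter, 2 members rose and 4 fell in PBS-perfused against PFA-perfused cells (12.3 and 28.9% of 20500 genes). In unperfused against PBS-perfused cells 10 fell without it (21.3% of these genes). With the injury-activated libraries averaged, 1 rose in PBS-perfused against PFA-perfused cells, 30 rose after injury against unperfused and 22 against PFA-perfused cells.

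With each library left out in turn, members called higher and lower ranged from 1 to 5 and 4 to 10 (PBS-perfused against PFA-perfused), 2 to 3 and 18 to 29 (unperfused against PFA-perfused), 0 and 8 to 26 (unperfused against PBS-perfused), 30 to 32 and 0 to 1 (injury-activated against unperfused) and 20 to 30 and 2 to 3 (injury-activated against PFA-perfused). A group left with 1 library was assumed to vary like the others. The share of all genes called also moved with a library left out and with the injury-activated pair averaged. Member counts from those fits are therefore not directly comparable with the main ones. Replicate numbers did not pair the libraries, with correlations of their deviations from -0.05 to 0.12; with the replicate block, 1 member fell after injury against unperfused cells, and no other count moved by over 1.5 times. Over 14 alternatives, calls were never lost for 30 of 32 members after injury against unperfused cells (all but Psmd4 and Psmd12), for 22 of 29 against PFA-perfused cells, for 13 of 23 in unperfused against PFA-perfused, 8 of 18 in unperfused against PBS-perfused and 4 of 11 in PBS-perfused against PFA-perfused cells. The cause of these differences was not tested, and depth, which is unknown, sets no stated limit here.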
